A study of Mus musculus with 2 samples.

Results

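The genes described are 8 components of transforming growth factor beta (TGF-beta) signalling, picked by gene symbol from the 32285 genes listed in the deposited tables: the ligands Tgfb1, Tgfb2 and Tgfb3, the latent TGF-beta binding protein Ltbp1, the receptors Tgfbr1, Tgfbr2 and Tgfbr3, and the TGF-beta-induced matrix gene Tgfbi. Each symbol stood once in the gene list, so all 8 were measured. Their levels were followed across the epithelial cells of newborn mouse skin in the study's libraries, 1 for each genotype. Back skin was taken at postnatal day 1 from mice that carried K14-Cre and a tdTomato reporter, without treatment and in batch 1. The PADI4 cKO library came from mice in which the Cre removes Padi4 from floxed alleles (Padi4 fl/fl), and the PADI4 WT library from controls. The extraction notes name K14-Cre Padi4 fl/fl mice for both libraries, so the Padi4 alleles of the controls are not given apart. Since the K14 promoter is active in keratinocytes and their progenitors, both the deletion and the tdTomato label are aimed at epithelium and not at the dermis. The epidermis was peeled off after dispase, and tdTomato-positive cells of the dermal fraction, which holds the growing hair follicles (HFs), were sorted and run on Chromium 3′ v3.1 chips. The number of animals behind each library was not given, so every difference between genotypes below is a difference between 1 library and another, with no test over animals.

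TGF-beta ligands are secreted as latent complexes that latent TGF-beta binding proteins tether to the extracellular matrix, and integrins release the active dimer. The dimer binds the type II receptor Tgfbr2, which recruits and phosphorylates the type I receptor Tgfbr1, and Tgfbr1 in turn activates Smad2 and Smad3. Betaglycan, encoded by Tgfbr3, is a co-receptor that presents ligand, above all Tgfb2, to this pair. In skin the pathway is known for restraining keratinocyte proliferation, and in the HF for roles in follicle formation, in the activation of hair germ cells and in regression.

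The libraries were of like depth. The tables held 143938990 unique molecular identifiers (UMIs, single counted transcripts) in PADI4 WT and 143945294 in PADI4 cKO, and 8070 and 7393 cells passed the filters, of which 7995 and 7357 fell in epithelial clusters, with medians of 14670 and 16208 UMIs. The libraries' cells shared 14 barcodes. Padi4 had 98 UMIs in PADI4 WT and 92 in PADI4 cKO (log2 ratio -0.12, -0.54 to 0.31). Counts from the 3′ end need not cover the floxed exons, so these UMIs neither set the libraries apart nor check their labels, and PADI4 cKO names the library labelled so throughout. The sexes were mixed differently: 62.4% of PADI4 WT epithelial cells had UMIs of Y-linked genes and none of Xist, 26% had Xist and no Y-linked UMIs, and in PADI4 cKO 98.3% had Xist and 0 cells had Y-linked UMIs alone. RNA from broken cells, estimated from droplets of fewer than 100 UMIs, made up at most 7.89% and 6.73% of the UMIs of cells.

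Cells were clustered with the 8 genes and 43 other pathway genes left out, and 18 epithelial groups with at least 50 cells in all were described. A group carries the name of a cell class, as in "outer root sheath (ORS)-like", where at least 3 of that class's markers were raised in it, more than of any other class, and its leading genes held no more markers of another class; its leading gene stands in brackets. The other groups are called by their leading genes alone. The classes named were interfollicular epidermis (IFE), sebaceous gland (SG), ORS, companion layer, lower proximal cup (LPC), germinative layer (GL), inner root sheath (IRS) and cortex (Cx). Levels are given as CPM, the UMI count of a gene scaled to the same total UMI count for every group and library, and ranges in brackets are exact 95% Poisson intervals that cover counting error only.

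**Figure D1:**
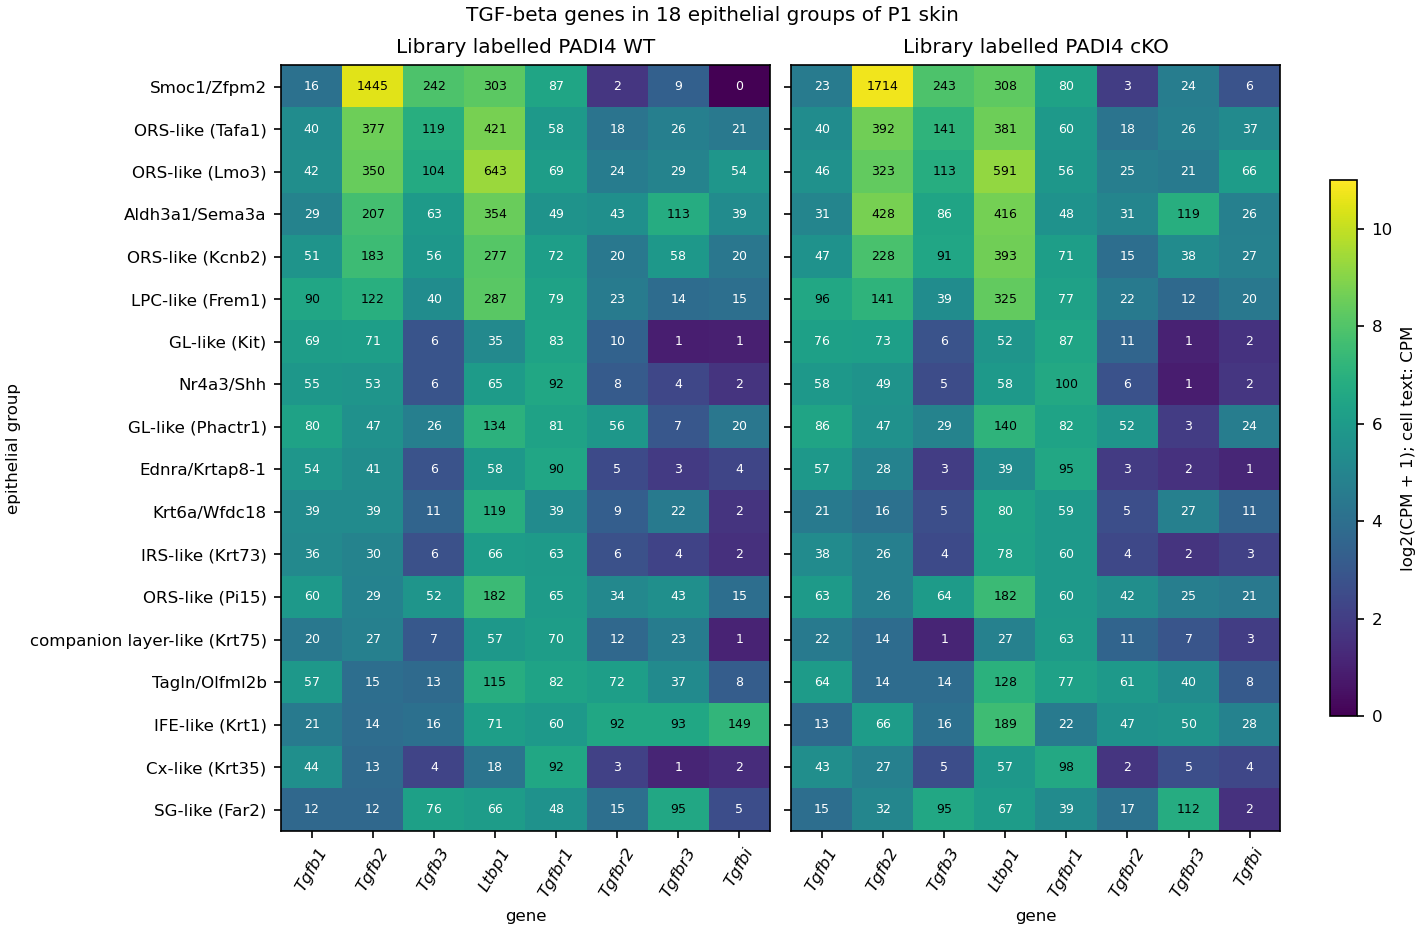
Level of each of the 8 genes (columns) in 18 epithelial groups (rows, ordered by Tgfb2 in PADI4 WT) of the library labelled PADI4 WT (left) and the library labelled PADI4 cKO (right); colour is log2(CPM + 1) and the printed number is CPM. Tgfb2, Tgfb3 and Ltbp1 were high in the same upper rows, Tgfbr1 was nearly even, with 91.8 CPM at its highest and 38.8 CPM at its lowest in PADI4 WT, and Tgfbr2, Tgfbr3 and Tgfbi were low in Cx-like cells.

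Tgfb2 (chr1:186622792-186705989, minus strand of GRCm38; protein coding, as were all 8 genes) was distributed unevenly over the groups. Its highest level was in a small group led by Smoc1, Zfpm2 and Crabp2, with 1445 CPM (1333 to 1564) over 42 cells in PADI4 WT and 1714 CPM (1616 to 1816) over 60 cells in PADI4 cKO. Every cell of this group held Tgfb2 UMIs, with a median of 14 UMIs a cell in PADI4 WT and 15.5 in PADI4 cKO. The group made up 0.525% and 0.816% of the epithelial cells of the libraries and held 4.34% and 6.23% of their Tgfb2 UMIs. It matched 4 upper HF markers (Plet1, Gata6, Lrig1 and Cst6) and 4 ORS markers and was left without a cell class. No cell of it was called a doublet. When each cell was thinned to 2000 UMIs, 90.5% and 90% of its cells still had Tgfb2.

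Below that group, Tgfb2 was high in ORS-like cells, the outer layer of the follicle, but not in all of them. In the Tafa1 group it reached 377 CPM (362 to 392) in PADI4 WT and 392 CPM (378 to 405) in PADI4 cKO, and in the Lmo3 group 349.6 CPM (336 to 364) and 323 CPM (312 to 335). The Kcnb2 group had 183 and 228 CPM. By contrast the Pi15 group, which carried the ORS markers Sox9, Tbx1 and Adamts19, had only 28.7 CPM (26 to 31.6) and 26.3 CPM (23.5 to 29.2), with intervals far from those of the other ORS-like groups. The Aldh3a1/Sema3a group raised 5 of 6 upper HF markers and also the ORS markers Sox9, Krt15 and Nfatc1. It had 207 CPM (199 to 215) in PADI4 WT and 428 CPM (415 to 441) in PADI4 cKO, and LPC-like cells had 122 and 141 CPM.

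Tgfb2 in the differentiating shaft and sheath groups lay much lower. IRS-like cells had 29.6 and 25.7 CPM, Cx-like cells 13.1 and 26.7 CPM and companion layer-like cells 26.5 and 13.7 CPM. In Cx-like cells 5.93% and 12.6% of cells had a Tgfb2 UMI at median depths of 14219.5 and 16536 UMIs, and free RNA could account for up to 49% and 23.2% of their Tgfb2 UMIs, against at most 0.443% and 0.361% in the Smoc1/Zfpm2 group. In the order of the 18 groups, neighbours had intervals apart at 7 steps in PADI4 WT and 6 in PADI4 cKO. The steps from the Smoc1/Zfpm2 group down to GL-like (Kit) cells were apart in PADI4 WT, except that between the Tafa1 and Lmo3 groups, and from the Nr4a3/Shh group down most neighbours could not be told apart.

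Tgfb3 (chr12:86056745-86079041, minus strand), the third ligand, had its highest level in the same Smoc1/Zfpm2 group, with 242 CPM (198 to 293) and 243 CPM (207 to 284). ORS-like cells of the Tafa1 group followed with 119 and 141 CPM, and those of the Lmo3 group with 104 and 113 CPM. Tgfb3 parted from Tgfb2 in the gland. SG-like cells had 75.9 and 95.3 CPM of Tgfb3, close to the top of its order, and 12 and 31.8 CPM of Tgfb2, the lowest of the 18 groups in PADI4 WT. The Pi15 ORS-like group, low in Tgfb2, likewise kept 52.3 and 64.3 CPM of Tgfb3. In the inner follicle Tgfb3 was close to background, with 6.23 and 5.96 CPM in GL-like (Kit), 5.55 and 4.48 CPM in IRS-like and 3.8 and 5.04 CPM in Cx-like cells, where free RNA could account for 40.9% to 67.1% of the UMIs in PADI4 WT. Neighbouring groups were apart at 5 steps in PADI4 WT and 6 in PADI4 cKO. An exon of Tgfb3 overlaps Ttll5 on the opposite strand, and whether the counting used strand was not given in the sources used here.

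Ltbp1 (chr17:75005568-75392512, plus strand), which anchors the latent ligand in the matrix, was highest in the Lmo3 ORS-like group, with 643 CPM (625 to 662) in PADI4 WT and 591 CPM (576 to 607) in PADI4 cKO. There 90.7% and 96.4% of cells had an Ltbp1 UMI. Although left out of the clustering, Ltbp1 and Tgfbi were both among the 10 leading genes of this group. The Tafa1 and Aldh3a1/Sema3a groups had 421 and 381 CPM and 354 and 416 CPM, LPC-like cells 287 and 325 CPM, and the Smoc1/Zfpm2 group 303 and 308 CPM. The lowest groups differed between the libraries. They were Cx-like cells in PADI4 WT, with 18.1 CPM (14.2 to 22.6), and companion layer-like cells in PADI4 cKO, with 27.5 CPM (20.1 to 36.7). Intervals of neighbours were apart at 7 and 5 steps.

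Tgfb1 (chr7:25687002-25705077, plus strand) followed another order. It was highest in the lower follicle, with 90.5 CPM (85.6 to 95.6) and 96.2 CPM (91.7 to 101) in LPC-like cells, 79.9 and 85.8 CPM in GL-like (Phactr1) cells and 68.9 and 75.8 CPM in GL-like (Kit) cells. It was low in the Smoc1/Zfpm2 group, with 16.4 CPM (6.61 to 33.9) and 22.5 CPM (12.6 to 37.2), and in SG-like cells, with 12 CPM (6.19 to 20.9) and 14.9 CPM (8.33 to 24.6). The group with the most Tgfb2 and Tgfb3 was thus among the 5 with the least Tgfb1 in both libraries. Below GL-like (Kit) cells, where the next step was apart in each library, no neighbours in its order could be told apart.

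**Figure D2:**
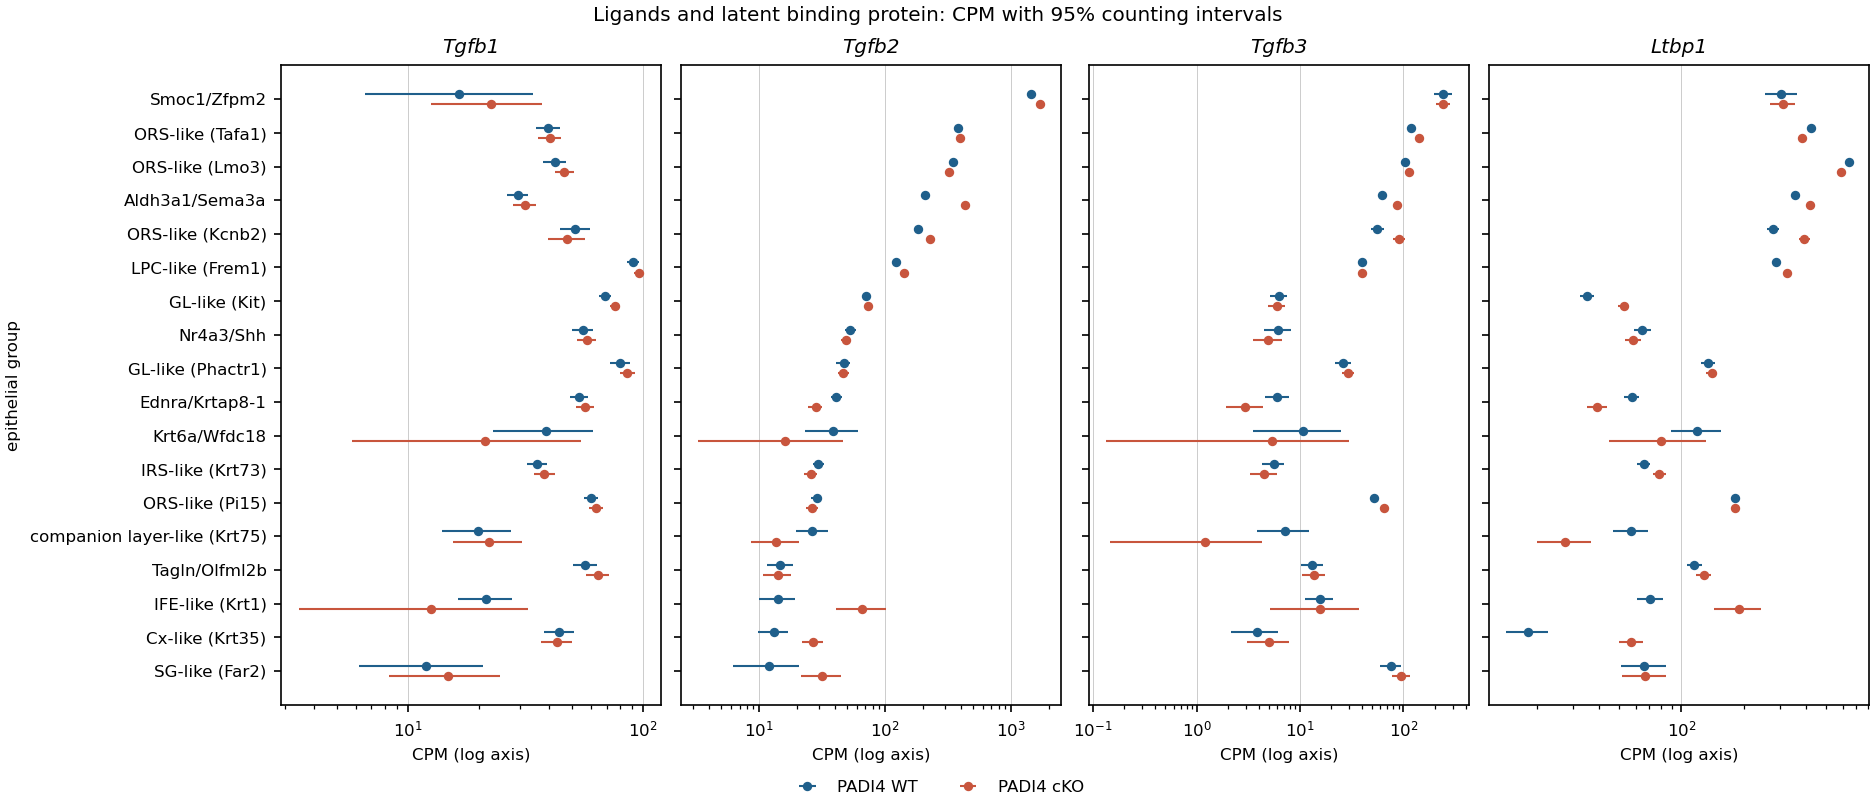
Tgfb1, Tgfb2, Tgfb3 and Ltbp1 in 18 epithelial groups (rows, ordered by Tgfb2 in PADI4 WT) as CPM on log axes of different range; points are the library labelled PADI4 WT (blue) and the library labelled PADI4 cKO (red), and bars are exact 95% Poisson intervals. The Smoc1/Zfpm2 group stood apart for Tgfb2 and Tgfb3 in both libraries, while LPC-like and GL-like cells had the highest Tgfb1.

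Across the 18 groups, the log2 levels of Tgfb3 and Ltbp1 correlated with r = 0.84 and 0.85 in PADI4 WT and PADI4 cKO, those of Tgfb2 and Ltbp1 with r = 0.76 and 0.78, and those of Tgfb2 and Tgfb3 with r = 0.69 and 0.77. Tgfb1 followed none of them closely, with r = -0.28 and -0.07 against Tgfb3 and 0.05 and 0.08 against Ltbp1. These correlations are descriptions over 18 points that share libraries, depth and a clustering. Each gene's own order was much the same in the other library, with r between 0.69 for Tgfbr1 and 0.97 for Tgfbr2. Tgfb2 and Ltbp1 also met in the same cells. In cells thinned to 2000 UMIs, the number with both was compared with the product of their shares in the 6 groups where that product came to at least 10 cells, a pair and a limit chosen after the values were seen. Observed over expected was 1.92 and 1.5 in Kcnb2, 1.47 and 1.22 in Aldh3a1/Sema3a, 1.34 and 1.1 in Tafa1, 1.17 and 1.15 in Lmo3, 1.16 and 1.19 in LPC-like and 1.02 and 1.06 in Smoc1/Zfpm2 cells. Each group holds subclusters that differ in both genes, and their part in these ratios was not tested.

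The promoters of Tgfb2 and Ltbp1 are shown because these genes had similar orders across the groups, and that of Tgfb1 because its order differed. RefSeq promoters (GRCm38.p6) were matched for 6 of the 8 genes. Each line gives the 250 bases before the annotated start, 5′ to 3′ on the strand of the gene, at chr1:186705990-186706239, minus strand for Tgfb2, chr17:75005279-75005528, plus strand for the first Ltbp1 entry and chr7:25686752-25687001, plus strand for Tgfb1. Capitals mark matches, on either strand, to any of 4 motifs, and no matches overlapped. The Smad-binding element was searched as CAGACA. The binding site of AP-1, a factor made of Jun and Fos proteins, was searched as TGACTCA. The cAMP response element was searched as TGACGTCA. The TATA box, a core promoter element, was searched as TATAAA.
Tgfb2 promoter: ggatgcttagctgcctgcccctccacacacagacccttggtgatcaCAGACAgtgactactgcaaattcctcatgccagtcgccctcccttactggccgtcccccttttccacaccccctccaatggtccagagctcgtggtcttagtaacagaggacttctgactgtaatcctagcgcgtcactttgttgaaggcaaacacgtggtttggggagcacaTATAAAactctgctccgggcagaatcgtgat
Ltbp1 promoter: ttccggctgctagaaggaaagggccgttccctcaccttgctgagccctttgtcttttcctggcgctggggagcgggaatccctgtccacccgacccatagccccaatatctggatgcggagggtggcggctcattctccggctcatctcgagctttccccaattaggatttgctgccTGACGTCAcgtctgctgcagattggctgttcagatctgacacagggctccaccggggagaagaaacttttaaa
Tgfb1 promoter: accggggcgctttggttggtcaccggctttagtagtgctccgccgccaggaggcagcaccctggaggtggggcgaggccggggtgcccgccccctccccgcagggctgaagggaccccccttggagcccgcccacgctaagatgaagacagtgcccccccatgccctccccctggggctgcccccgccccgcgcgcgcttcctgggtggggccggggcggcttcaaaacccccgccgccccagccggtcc
The Tgfb2 promoter held the Smad-binding element, whose first base lay 204 bases before the start, and a TATA box 31 bases before it. The first Ltbp1 promoter held the cAMP response element 73 bases before the start, and the second entry, not printed, 2 Smad-binding elements on the opposite strand, 149 and 98 bases before its start. For neither Ltbp1 entry were the bases that follow the start found in a transcript of the gene in the annotation. The Tgfb1 promoter held, at 75.2% G and C, none of the 4 motifs. Among the 32851 promoters of the table, 17.1% held the Smad-binding element, 4.46% the AP-1 site, 1.55% the cAMP response element and 12.4% the TATA box in the same window, so these matches are descriptions of the windows and say nothing of a factor's binding.

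The receptors were distributed unlike the ligands and unlike one another. Tgfbr1 (chr4:47353222-47414931, plus strand), the type I receptor kinase, was present in every group at a like level. Its highest values were 91.8 CPM (84.9 to 99.2) and 99.5 CPM (92.8 to 107) in the Nr4a3/Shh group and 91.7 and 98.1 CPM in Cx-like cells, and where both libraries gave 50 cells or more its lowest were 48.9 and 48.3 CPM in the Aldh3a1/Sema3a group and 47.9 and 38.7 CPM in SG-like cells. Between neighbours in its order the intervals were apart at 1 step in PADI4 WT and at 0 in PADI4 cKO, so that most of its order could not be resolved at this depth.

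Tgfbr2 (chr9:116084293-116175360, minus strand), the ligand-binding type II receptor, was by contrast restricted. In PADI4 WT it was highest in IFE-like cells, with 91.9 CPM (80.8 to 104), a group that held 202 cells in PADI4 WT and only 25 in PADI4 cKO, where its level was 47.3 CPM (26.5 to 78). Besides 6 of 7 IFE markers, this group also raised the upper HF markers Krt79, Plet1, Gata6 and Cst6. The Tagln/Olfml2b group, also led by Acta2 and Myl9, had 71.7 CPM (64.5 to 79.4) and 61.3 CPM (54.4 to 68.9), and GL-like (Phactr1) cells had 56.4 and 51.8 CPM. In the other GL-like group, led by Kit, Tgfbr2 was at 9.91 and 11 CPM, with intervals apart from those of the Phactr1 group in both libraries. Ednra/Krtap8-1 cells (4.62 and 2.72 CPM), Cx-like cells (3.33 and 2.27 CPM) and the Smoc1/Zfpm2 group (1 and 2 UMIs in all) had almost none. The group with the most Tgfb2 and Tgfb3 had the lowest Tgfbr2 level of the 18 in PADI4 WT, at 2.35 CPM (0.06 to 13.1). This could not be told apart from Cx-like cells, and in PADI4 cKO, at 3 CPM (0.36 to 10.9), it was not the lowest. Free RNA could account for 70.5% and 32.8% of its Tgfbr2 UMIs. Neighbours were apart at 5 steps in PADI4 WT and at 1 in PADI4 cKO.

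Tgfbr3 (chr5:107106570-107289629, minus strand), betaglycan, was concentrated in groups with upper follicle and gland markers. The Aldh3a1/Sema3a group had 113 CPM (107 to 119) and 119 CPM (113 to 126), and held 40.1% and 44% of the epithelial Tgfbr3 UMIs with 12.3% and 10.1% of the cells. SG-like cells had 94.9 and 112 CPM, and IFE-like cells 93.4 and 50.4 CPM. Tgfbr3 was lowest in the lower and inner follicle: GL-like (Kit) cells had 16 and 22 UMIs in all (0.906 and 1.06 CPM), which free RNA could give in full in PADI4 WT and nearly so in PADI4 cKO. IRS-like and Ednra/Krtap8-1 cells had 3.59 and 2.14 CPM and 2.69 and 2.01 CPM. Outside the epithelium it was higher still. In the small fibroblast-like cluster (49 and 26 cells) Tgfbr3 reached 415 CPM (371 to 462) and 662 CPM (590.4 to 740.0), and Tgfbr2 77.4 and 135 CPM. Those cells were kept out of all epithelial sums. In an order of 18 groups, neighbours were apart at 2 steps in each library.

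Tgfbi (chr13:56609523-56639562, plus strand) encodes a secreted matrix protein first described as induced by TGF-beta. In PADI4 WT it was highest in IFE-like cells, with 149 CPM (134 to 164) and Tgfbi UMIs in 67.8% of cells. In the 25 IFE-like cells of PADI4 cKO it was 28.4 CPM (13 to 53.9) from 9 UMIs, below the Lmo3 ORS-like group, which led there with 66.3 CPM (61.3 to 71.7) against 54.1 CPM (48.9 to 59.8) in PADI4 WT. Aldh3a1/Sema3a and ORS-like (Tafa1) cells had 38.8 and 26.4 CPM and 21 and 37.3 CPM. GL-like (Kit), companion layer-like and Cx-like cells were at 0.962 and 2.02 CPM, 1.11 and 2.99 CPM and 1.66 and 4.03 CPM, at or under what free RNA could give in PADI4 WT. In the Smoc1/Zfpm2 group there were 0 UMIs in PADI4 WT, which allows up to 3 UMIs, and 4 in PADI4 cKO. Neighbours were apart at 4 steps in PADI4 WT and 1 in PADI4 cKO.

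**Figure D3:**
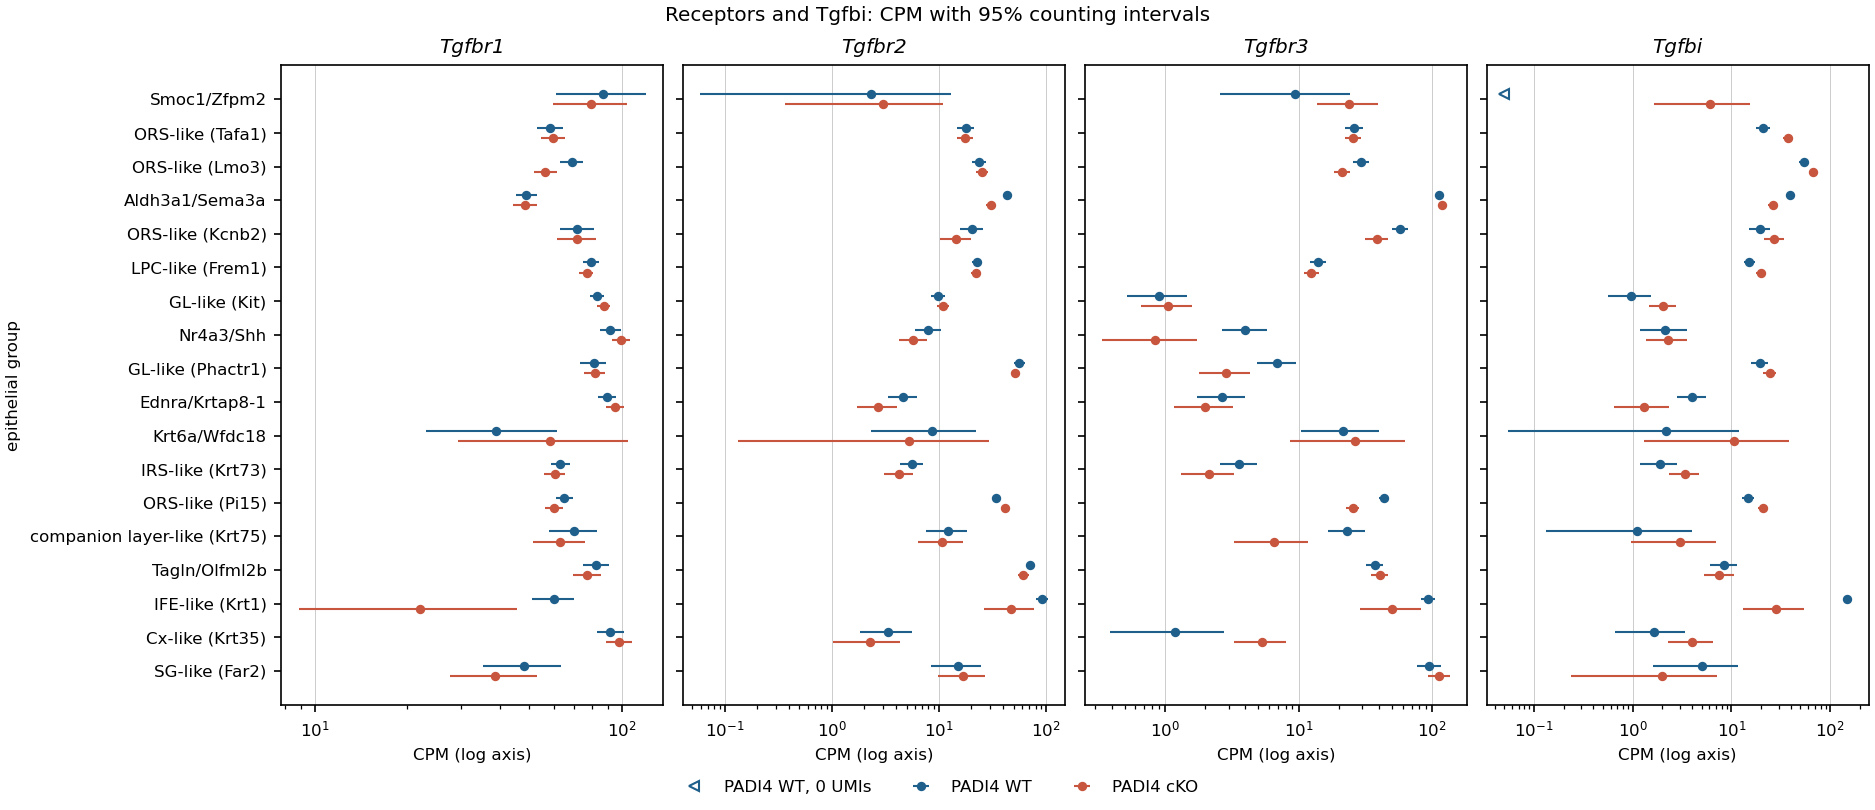
Tgfbr1, Tgfbr2, Tgfbr3 and Tgfbi in 18 epithelial groups (rows, ordered by Tgfb2 in PADI4 WT) as CPM on log axes of different range; points are the library labelled PADI4 WT (blue) and the library labelled PADI4 cKO (red), bars are exact 95% Poisson intervals, and an open triangle marks 0 UMIs. Tgfbr1 was nearly even across groups, whereas Tgfbr2, Tgfbr3 and Tgfbi ran from a few CPM or less in Cx-like cells to 91.9, 113 and 149 CPM in their highest PADI4 WT groups.

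Over the 18 groups, Tgfbr2 and Tgfbi had r = 0.82 and 0.63 in PADI4 WT and PADI4 cKO, Tgfbr1 and Tgfbr3 r = -0.64 and -0.66, and Tgfb2 and Tgfbr2 r = -0.19 and 0.02, again as descriptions. Set against the other epithelial cells of PADI4 WT, the log2 level in the highest group was 3.76 for Tgfb2, 3.33 for Tgfbi, 2.76 for Tgfb3, 2.48 for Tgfbr3, 1.98 for Tgfbr2, 1.97 for Ltbp1, 0.88 for Tgfb1 and 0.36 for Tgfbr1. The same groups in PADI4 cKO gave 3.69 for Tgfb2 and 2.50 for Tgfb3, but 0.77 for Tgfbi and 1.19 for Tgfbr2, both of which rest on the 25 IFE-like cells of that library. In Xist cells of PADI4 WT Tgfbi was at 1.22. At the finer resolution of 2.0, the values in PADI4 WT were 0.44 for Tgfbi and -0.064, the opposite sign, for Tgfbr2. The cells counted as IFE-like were not the same at that resolution. The cluster assigned to that group had 53.3% of its cells there, with 23.4 CPM of both genes in PADI4 WT. Another cluster, led by Cstdc5, Stfa3 and Stfa1, also leading genes of IFE-like cells, was assigned to the Aldh3a1/Sema3a group. It had 126.6 CPM of Tgfbi and 92.95 CPM of Tgfbr2 in PADI4 WT.

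The comparison of the libraries asks whether loss of PADI4, an enzyme that converts arginine to citrulline in proteins, goes with another level of these genes in the follicle. Over all epithelial cells the ligands and Ltbp1 were somewhat higher, and the receptors Tgfbr2 and Tgfbr3 lower, in the library labelled PADI4 cKO. Tgfb2 was at 111 and 141 CPM in PADI4 WT and PADI4 cKO, a log2 ratio of 0.35 (0.31 to 0.38). For Tgfb3 the ratio was 0.27 (0.21 to 0.32), for Tgfb1 0.18 (0.13 to 0.23) and for Ltbp1 0.14 (0.12 to 0.17). Tgfbr3 was at 30.1 and 21.1 CPM (-0.51, -0.58 to -0.44) and Tgfbr2 at 24.9 and 21.4 CPM (-0.21, -0.29 to -0.14). For Tgfbr1, at 0.02 (-0.02 to 0.06), and Tgfbi, at 17.6 and 17.6 CPM, the intervals held 0. Only Tgfbr3, 1 of the 8 genes, lay past 0.5 on the log2 scale, the fold used here as a mark of size, and 5.15% of all 14901 genes with at least 100 UMIs did so. With ratios centred on the median of all genes, Tgfbr3 was at -0.494, just short of that mark. Group shares enter these sums. IFE-like cells made up 2.53% of epithelial cells in PADI4 WT and 0.34% in PADI4 cKO. They held 7.84% and 0.541% of the Tgfbr2, 6.59% and 0.584% of the Tgfbr3 and 17.9% and 0.395% of the Tgfbi UMIs. Over groups with at least 100 UMIs, median ratios were -0.12 for Tgfbr2, -0.09 for Tgfbr3 and 0.39 for Tgfbi. They rest on 11, 8 and 7 groups. Averaged over the 15 groups compared, so that group sizes do not enter, the Tgfb3 ratio was -0.0851, the opposite sign. That mean includes groups with few UMIs, such as companion layer-like cells, at 7.19 and 1.2 CPM. Over the 11 groups with at least 100 Tgfb3 UMIs, the median was 0.16, and 8 ratios were above 0. For Tgfb2 the median over 13 such groups was -0.0045, and 6 ratios were above 0. These intervals cover the counting of UMIs in these libraries, and the spread between animals is unknown.

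In cells with Xist and no Y-linked UMIs, which both libraries held, the ratio of Tgfbr3 was 0.11 (-0.02 to 0.24) and that of Tgfbr2 0.03 (-0.09 to 0.16), with intervals that held 0. Within PADI4 WT itself, cells with Xist had less Tgfbr3 than cells with Y-linked UMIs, at 19.6 against 33.9 CPM, a log2 ratio of -0.79 (-0.92 to -0.66), and Tgfbr2 differed by -0.31 (-0.44 to -0.19). Between these cells 5.67% of all genes lay past 0.5, and Tgfbr3 and Tgfbi were the members that did. For Tgfbi the ratio was -0.64 (-0.81 to -0.48) within PADI4 WT, but -0.19 as the mean over 14 groups, and 0.49 (0.33 to 0.65) between the libraries' Xist cells. Tgfb2 and Ltbp1 were higher in PADI4 cKO in either comparison, at 0.39 (0.34 to 0.45) and 0.25 (0.21 to 0.29) in Xist cells, and within PADI4 WT they differed the other way, by -0.07 (-0.13 to -0.02) and -0.14 (-0.18 to -0.09). For Tgfb3 the ratio was 0.06 (-0.02 to 0.15) in Xist cells and 0.29 (0.20 to 0.39) within PADI4 WT, where the mean over 14 groups was -0.15. Tgfb1 and Tgfbr1 differed within PADI4 WT by 0.17 (0.09 to 0.25) and 0.08 (0.01 to 0.15). In Xist cells 4.86% of all genes compared lay past 0.5, and over all epithelial cells of the 8 genes none did. As means over 14 groups with equal weight, which include groups with few UMIs, Tgfbr3 stood at 0.54 and Tgfbi at 0.54, both past 0.5. Cells of the sexes come from different animals, so these splits also part animals of the PADI4 WT library.

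**Figure D4:**
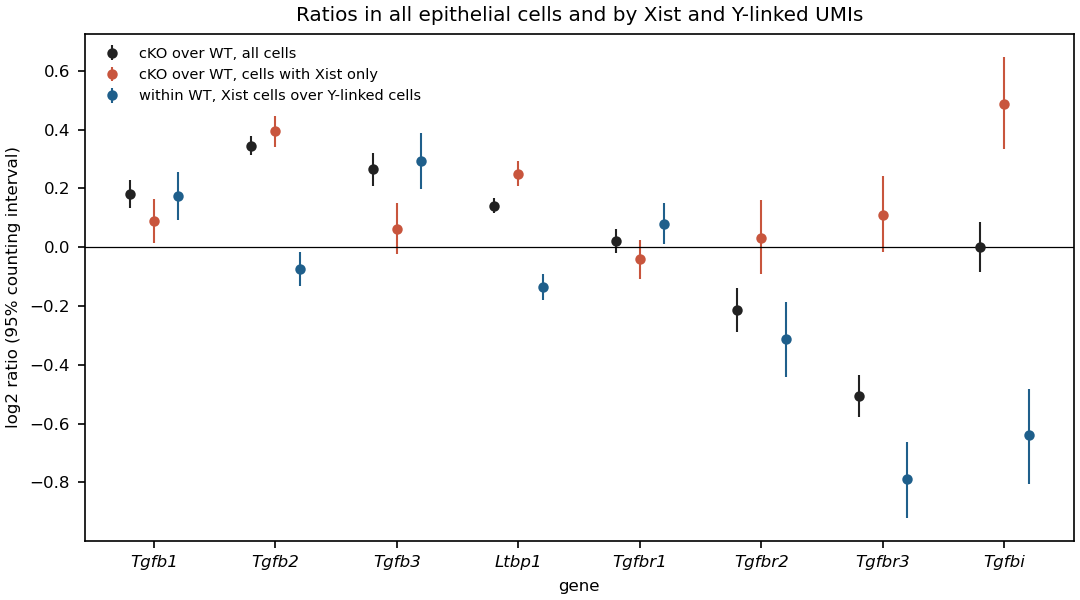
Log2 ratios of the 8 genes over all epithelial cells: PADI4 cKO divided by PADI4 WT in all cells (black), the same in cells with Xist and no Y-linked UMIs (red), and within PADI4 WT cells with Xist over cells with Y-linked UMIs (blue). Bars are exact 95% intervals for counting error, and for Tgfb3, Tgfbr1, Tgfbr2, Tgfbr3 and Tgfbi the difference within PADI4 WT was as large as that between libraries or larger.

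Group by group, each library gave 50 cells or more to 15 groups, and 92 pairs of gene and group had at least 100 UMIs. Of these 14 (15.2%) lay past 0.5, 8 higher and 6 lower in PADI4 cKO, against 4.79% of all genes in the same groups, 2.07% higher and 2.72% lower. Within PADI4 WT, Xist cells against Y-linked cells gave 11 of 77 pairs (14.3%) past 0.5, against 6.43% of all genes, a like share between cells of different sex in 1 library. In Xist cells alone 13 of 83 pairs (15.7%) lay past 0.5, against 6.88% of all genes, and 8 of the 14 pairs were past it with the same sign there. Tgfb1, Tgfbr1 and Tgfbr2 had no pair past 0.5 in all cells, and over 13, 14 and 11 groups their ratios ran from -0.12 to 0.18, -0.28 to 0.12 and -0.49 to 0.29.

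Tgfb2 in the Aldh3a1/Sema3a group differed by 1.05 (0.98 to 1.12), from 2812 and 4331 UMIs. Here 7.83% of all genes lay past 0.5. The share of cells with a Tgfb2 UMI was 46.9% of 982 and 65.8% of 740 cells, at like depths of 12315 and 11819.5 median UMIs, and in thinned cells 23.9% and 40.1%. In a finer clustering of all cells, 4 subclusters with at least 20 cells in each library lay mostly in this group, with 62.5%, 66.7%, 74.5% and 100% of their cells. Over all their cells, those of other groups included, Tgfb2 was at 819 and 1115 CPM, 53.8 and 217 CPM, 52.4 and 166 CPM and 178 and 298 CPM in PADI4 WT and PADI4 cKO, in the same order. The subcluster with the most Tgfb2 was led by Cacna1e and the ORS markers Adamts19 and Lmo3. The one wholly in the group was led by the upper HF marker Cst6. In Xist cells of the group Tgfb2 was at 307 and 428 CPM (0.48, 0.35 to 0.61), and in Y-linked cells of PADI4 WT at 201 CPM. Within PADI4 WT these sets of cells differed by 0.61.

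Tgfbr3 and Tgfbi of the same Aldh3a1/Sema3a cells did not follow Tgfb2. Tgfbr3 had a ratio of 0.08 (-0.03 to 0.19), and Tgfbi was lower in PADI4 cKO at -0.55 (-0.77 to -0.34), though at 0.01 (-0.43 to 0.52) in Xist cells. In the 4 subclusters, in the order above, Tgfbi was at 31.15 and 48.4, 126.6 and 50, 38.25 and 34, and 13.3 and 11.6 CPM. The subcluster with 126.6 CPM held 383 cells in PADI4 WT and 107 in PADI4 cKO. The others held 218 and 209, 384 and 310, and 318 and 283 cells. The part of these cell numbers in the ratio was not tested. In Cx-like cells, precursors of the hair cortex, Ltbp1 was at 18.1 CPM (14.2 to 22.6) and 57 CPM (49.8 to 64.9), a ratio of 1.65 (1.28 to 2.05), and Tgfb2 differed by 1.03 (0.55 to 1.53), with 4.79% of all genes past 0.5. Both genes were low in this group, and the 5 Ltbp1 UMIs of PADI4 WT Xist cells make the ratio there, 3.54 (2.43 to 5.31), uncertain in size. GL-like (Kit) cells had 34.9 and 52.5 CPM of Ltbp1 (0.59, 0.45 to 0.73; 2.5% of all genes past 0.5), higher in PADI4 cKO in all 4 subclusters that lay mostly in this group, with 82% to 99.5% of their cells. In companion layer-like cells, where 7.61% of all genes lay past 0.5, Ltbp1 was lower in PADI4 cKO, at 57 and 27.5 CPM (-1.04, -1.59 to -0.54).

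The Kcnb2 ORS-like group held 3 of the pairs past 0.5, with 7.37% of all genes past it: Tgfb3 at 0.69 (0.42 to 0.97), Ltbp1 at 0.50 (0.38 to 0.63) and Tgfbr3 at -0.58 (-0.94 to -0.24). All 3 were past 0.5 with the same sign in Xist cells. Yet in the only subcluster that lay mostly in this group, with 96.4% of its cells, Ltbp1 was at 169.9 and 135 CPM and Tgfb2 at 55.8 and 11.1 CPM, both lower in PADI4 cKO, so the higher Ltbp1 of the whole group did not hold there. Another subcluster, with 57.05% of its cells in the Tafa1 group, was led by Ebf1, Sorbs2 and Kcnb2. In it Ltbp1 was at 541.3 and 643.1 CPM and Tgfb2 at 481.9 and 509.5 CPM, both higher in PADI4 cKO. Tgfbr3 was also lower in the Pi15 ORS-like group, with 43.4 and 25.3 CPM (-0.77, -0.97 to -0.58, and -0.62 (-0.89 to -0.34) in Xist cells). Within PADI4 WT, Xist over Y-linked cells, Tgfbr3 was at -0.21 (-0.49 to 0.05) in the Pi15 and -0.11 (-0.61 to 0.36) in the Kcnb2 group, where the ratio in Xist cells was -0.60 (-1.09 to -0.08). Tgfbi was higher in PADI4 cKO in 6 of the 7 groups compared, at 0.83 (0.54 to 1.13) in the Tafa1 ORS-like group and 0.50 (0.24 to 0.77) in the Pi15 group. Of all genes, 5.98% lay past 0.5 in the Tafa1 and 3.91% in the Pi15 group. In Ednra/Krtap8-1 cells, which carried medulla markers and where 4.37% of all genes lay past 0.5, Tgfb2 and Ltbp1 were lower in PADI4 cKO, at -0.55 (-0.79 to -0.31) and -0.56 (-0.76 to -0.36). In Xist cells these ratios were 0.57 (0.09 to 1.11), the opposite sign, and -0.01 (-0.35 to 0.37).

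**Figure D5:**
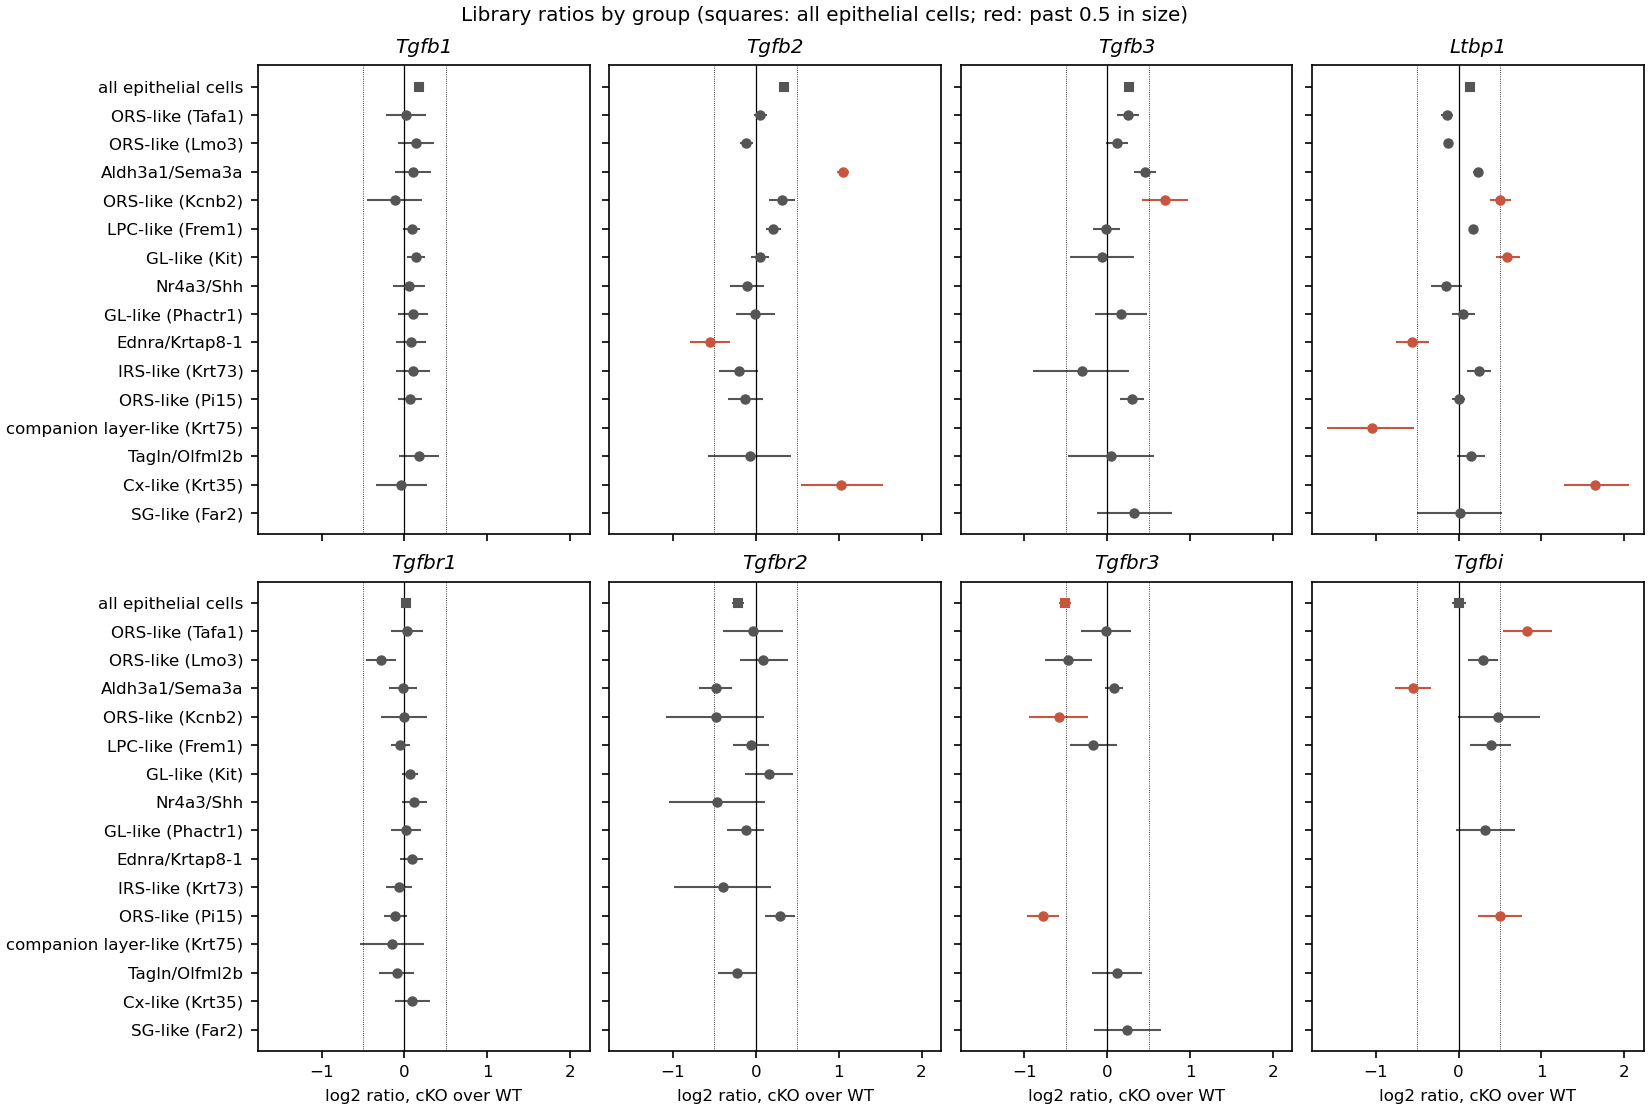
Log2 ratio of each gene (panels), PADI4 cKO divided by PADI4 WT, in all epithelial cells (squares) and in each of 15 groups (rows) with at least 100 UMIs; bars are exact 95% intervals for counting error, dotted lines stand at 0.5 on either side of 0, and red marks ratios past them. Of 92 points 14 were red, with Ltbp1 in Cx-like cells at 1.65 and Tgfb2 in the Aldh3a1/Sema3a group at 1.05 the farthest above 0. Tgfb1 and Tgfbr1 stayed within 0.5 in every group.

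Of 43 other listed pathway genes, 39 reached 5 CPM in some group, and of the 41 with at least 100 UMIs, 1 was higher and 1 lower in PADI4 cKO past 0.5, with a median log2 ratio of -0.01, against 1.57% of all genes higher and 3.58% lower. The lower gene was Fst, which encodes the activin antagonist follistatin. Over all epithelial cells Fst was at 155 and 94.9 CPM (-0.71, -0.74 to -0.67). It was highest in the Aldh3a1/Sema3a group, at 858 and 697 CPM.

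By role, none of the 9 latency and activation genes compared lay past 0.5. Itgb6, a subunit of an integrin that releases active TGF-beta, was highest in the Tagln/Olfml2b group at 266 and 254 CPM and low, at 6.28 and 3.26 CPM, in the Nr4a3/Shh group. Ltbp3 was highest in the Tagln/Olfml2b group too (129 and 128 CPM), while Ltbp4 was highest in Kcnb2 ORS-like cells (114 and 109.7 CPM) and Ltbp2 in the Smoc1/Zfpm2 group (72.8 and 75.1 CPM). Itgb8, of another activating integrin, was highest in SG-like cells at 119 and 95.3 CPM. None of the 4 Smad and anchor genes or the 10 inhibitors did either. Smad4, the shared partner of the receptor-activated Smads, was at 91.9 and 95.3 CPM in SG-like cells, its lowest group, while Smad3 was at 10.2 and 14.7 CPM in the Tagln/Olfml2b group and 78.3 and 78.9 CPM in LPC-like cells, its highest. The inhibitors Smad7 and Bambi were highest in Ednra/Krtap8-1 cells (197 and 192 CPM, and 192 and 163 CPM), and Pmepa1 in the Tagln/Olfml2b group (447 and 451 CPM). Among 9 response genes, Ccn2, Snai2 and Tgfb1i1 were highest in the Tagln/Olfml2b group, at 117 and 112 CPM, 89.3 and 100.4 CPM and 56.2 and 62.6 CPM. Others were highest in other groups. Cdkn1a was highest in Cx-like cells (493 and 358 CPM) and Fn1 in the Nr4a3/Shh group (334 and 313 CPM). Klf10 was highest in Ednra/Krtap8-1 cells (34.3 and 41.1 CPM), Cdkn2b in companion layer-like cells and Itga5 in Kcnb2 ORS-like cells. The Tagln/Olfml2b group was the highest for 7 of the 39 genes, the Smoc1/Zfpm2 group for 6 and Cx-like cells for 5. The Krt6a/Wfdc18 and Kcnb2 groups were the highest for 4 each. The share of all genes highest in each group was not computed, so these counts are descriptions only. In the activin branch Inhbb was highest in the small Krt6a/Wfdc18 group (119 and 112 CPM) and Acvr2a in Tafa1 ORS-like cells (179.6 and 210.3 CPM). Lrrc32, Inhba, Acvr1c and the co-receptor Eng stayed under 5 CPM in their highest groups.

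The genes most like each member across groups were found from the levels of 9929 genes over 36 points, 18 groups in each library, and are descriptions. For Tgfb2 they were Bdnf (r = 0.86), Npas2 and Cacna1e, the last a leading gene of the Smoc1/Zfpm2 group. Trp73 was among the closest for both Tgfb3 (r = 0.91) and Ltbp1 (r = 0.92), beside Slc7a6 and Ergic1 for Tgfb3 and Enox1 and Tshz2 for Ltbp1. Tgfb1 was closest to Dtymk (r = 0.91), Zfp422 and Dut, of which Dtymk and Dut encode enzymes of thymidine nucleotide synthesis. For the receptors, the closest were Pkig, Prkar1a and Acad8 for Tgfbr1 (r = 0.86 for Pkig), Arhgdib, Sema3c and Il6ra for Tgfbr2 (r = 0.91 for Arhgdib), and Rbm47 and Psap for Tgfbr3 (r = 0.92 for Rbm47). Tgfbi was closest to Atp6v1b1 (r = 0.86), Chl1 and Slc38a4.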

How the data were processed

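Single-cell RNA-seq was available for 1 PADI4 WT and 1 PADI4 cKO library. The deposited matrices hold UMI counts per gene and barcode, unfiltered, made by the authors with Cell Ranger 7.1.0 per the file headers, and mm10 is named in the submitters' processing notes. The study's methods also name CellBender and Harmony, which were not run here. Counts that a strand setting could change, as at Tgfb3 and Ttll5, cannot be judged, since that setting is not given in the sources used here.

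Barcodes were kept as cells within limits on UMIs (2000 to 60000), on genes (1000 to 8000), on the mitochondrial (up to 20%) and haemoglobin share (up to 1%) and on the ribosomal share (5th to 99th percentile). Counts were scaled to 10000 per cell, corrected for cell cycle and clustered with scanpy 1.11.5 and leidenalg 0.10.2 (1000 variable genes, 50 principal components, 15 neighbours, resolution 1) without the 8 genes and the pathway list. A cluster took a class name where at least 3 of its markers were raised, more than of any other class, and where the cluster's 10 leading genes held no more markers of another class than of its own. Scrublet called 289 and 300 doublets, which were left in. The threshold of 0.193 it set for PADI4 cKO was applied to both libraries after seeing the data, since the 0.602 it set for PADI4 WT called 1 cell.

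UMIs were summed per library and group. Levels carry exact Poisson, shares exact Clopper-Pearson and log2 ratios exact conditional intervals at 95%, computed with scipy 1.17.1, with a pseudocount of 0.5 UMIs in ratios. With 1 library for each genotype no test was made, and a ratio past 0.5 in a gene with at least 100 UMIs only marks size. On simulated data for GL-like (Kit) cells, over 10761 genes, 99% of raised, 99% of lowered and 0.53% of the other genes passed that mark. For ORS-like (Kcnb2) cells, over 7920 genes, these shares were 100%, 100% and 1.62%. Between the libraries themselves 2.5% and 7.37% of all genes lay past that mark in these groups. Spread between animals was not tested. Depth was 143938990 and 143945294 UMIs, and intervals and floors of 3 UMIs cover counting error only.

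The members and lists were chosen with earlier results of these data known. The genes named are the 8 members, the pathway genes that reached 5 CPM in some group, and for each member the 3 genes with the highest Pearson r of log2(CPM + 1) among those reaching 20 CPM. Of the genes this rule takes, 2 are not reported here by name or value. Positions are from GENCODE for GRCm38. Alternatives were other UMI minimums, doublets left out, thinning to 2000 UMIs, subtraction of empty-droplet UMIs, Xist cells alone, other resolutions, no cell cycle correction, a marker gate and other UMI minimums for pairs. Further alternatives were CPM without mitochondrial and ribosomal protein genes, and ratios centred on the median of all genes. Added to these, the mean over groups and PADI4 cKO levels in place of PADI4 WT were chosen after seeing the data.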

Additional observations from a re-analysis of the deposited data

Results flagged for a closer look

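Some genes differed between the libraries in opposite directions in different groups. Tgfb2 had a log2 ratio of PADI4 cKO over PADI4 WT of 1.05 in the Aldh3a1/Sema3a group and of -0.55 in Ednra/Krtap8-1 cells. Ltbp1 had 1.65 in Cx-like (Krt35) and -1.04 in companion layer-like (Krt75) cells. Tgfbi had 0.83 in ORS-like (Tafa1) and -0.55 in Aldh3a1/Sema3a cells. Of the subclusters mostly in the Aldh3a1/Sema3a group, the one with the most Tgfbi held 383 cells in PADI4 WT and 107 in PADI4 cKO. With 1 library for each genotype, the difference between the groups was not tested for any of the 3 genes. In Xist cells Tgfb2 in Ednra/Krtap8-1 and Tgfbi in Aldh3a1/Sema3a cells had ratios of the opposite sign, 0.57 and 0.01, and companion layer-like cells had too few UMIs of Ltbp1 for a value.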

How the results depend on the processing

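No paired analysis was possible because each genotype has 1 library, and for the same reason no library could be left out. Of 72 alternative values of the library ratios over all epithelial cells, 54 stayed within their counting interval, 15 left it and 3 turned sign. A turn of sign was counted only where the main interval excluded 0. Tgfbr1 and Tgfbi, whose main intervals held 0, also changed sign in some settings and are counted as having stayed or left. Of 78 alternative values of the log2 level in the highest group against the other epithelial cells, 46 stayed, 31 moved and 1 turned sign, and of 14 counts of pairs past 0.5, 3 moved by over 1.5 times. The causes were not tested. Some settings gave no value for some genes, as stated below, and these are not among the 78.

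Library ratios in Xist cells alone were 0.089 for Tgfb1, 0.39 for Tgfb2, 0.063 for Tgfb3, 0.25 for Ltbp1, -0.042 for Tgfbr1 and 0.49 for Tgfbi, and turned sign to 0.032 for Tgfbr2 and 0.11 for Tgfbr3. As means over groups they were 0.090, 0.13, 0.11, -0.045, -0.38 and 0.25 for Tgfb1, Tgfb2, Ltbp1, Tgfbr1, Tgfbr3 and Tgfbi, and -0.085 for Tgfb3, the opposite sign. These means include groups with few UMIs. In thinned cells the library ratios were 0.20 for Ltbp1, -0.11 for Tgfbr2 and -0.38 for Tgfbr3. The 14 pairs past 0.5 became 7 in thinned cells, 22 with at least 50 UMIs and 7 with at least 500 UMIs.

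Levels in the highest group became 0.78, 3.48, 3.34, 1.87, 0.54 and 3.14 in thinned cells for Tgfb1, Tgfb2, Tgfb3, Ltbp1, Tgfbr1 and Tgfbi. In Xist cells they were 3.91 for Tgfb2, 2.17 for Ltbp1, 0.59 for Tgfbr1, 2.60 for Tgfbr3 and 1.22 for Tgfbi. At least 1000 UMIs gave 2.67 for Tgfbr3, and at least 4000 UMIs 2.70 for Tgfbr3 and 2.04 for Ltbp1. Neither minimum gave a value for Tgfbr2 and Tgfbi, and at least 4000 UMIs gave none for Tgfb2 and Tgfb3 either. Without doublets Ltbp1 was at 2.02, and with empty-droplet UMIs subtracted Ltbp1 was at 2.03 and Tgfbi at 3.49. Resolution 0.5 gave 0.60, 2.32 and 3.54 for Tgfb1, Tgfbr3 and Tgfbi, and no value for Tgfb2, Tgfb3, Ltbp1 and Tgfbr1. Resolution 2.0, where the cells counted as IFE-like were not the same, gave 0.44 for Tgfbi and -0.064 for Tgfbr2, the opposite sign. Without cell cycle correction Tgfb1 was at 1.07 and Ltbp1 at 1.32, and Tgfb2, Tgfb3, Tgfbr2 and Tgfbi had no value. The marker gate gave 0.48, 1.44, 1.27 and 2.05 for Tgfb1, Ltbp1, Tgfbr2 and Tgfbi, and no value for Tgfb2, Tgfb3, Tgfbr1 and Tgfbr3, whose highest groups it does not hold. PADI4 cKO in place of PADI4 WT gave 1.71, 1.19, 3.21 and 0.77 for Ltbp1, Tgfbr2, Tgfbr3 and Tgfbi.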
